A study of Homo sapiens with 6 samples.

Results

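Catecholamine synthesis, storage and breakdown were followed through 9 genes taken by symbol, in pathway order, out of 35130 gene names. They encode the synthetic enzymes (TH, DDC, DBH and PNMT), the vesicular transporters (SLC18A1 and SLC18A2), the plasma membrane noradrenaline transporter (SLC6A2), monoamine oxidase A (MAOA) and the vesicle cytochrome CYB561. The cells were SK-N-BE(2), an established human neuroblastoma line with amplified MYCN whose labelled tissue of origin is bone marrow, and their RNA was sequenced. Cells in dishes received 1 µM NEN or the solvent DMSO for 24 h, with 3 libraries in each group that the labels call biological replicates. The labels give NEN by its abbreviation alone, and published work on neuroblastoma uses it for niclosamide ethanolamine, which uncouples mitochondria. All libraries come from this single line, so the replicates share its genome.

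Catecholamines are made from tyrosine in sympathetic neurons and in chromaffin cells of the adrenal medulla, and neuroblastoma arises from the same lineage. Tyrosine hydroxylase (TH) makes L-DOPA in the rate-limiting step, DDC turns it into dopamine, and DBH makes noradrenaline inside the vesicle. PNMT makes adrenaline from noradrenaline. The vesicular monoamine transporters VMAT1 (SLC18A1) and VMAT2 (SLC18A2) load the amines, SLC6A2 takes released noradrenaline back into the cell, and MAOA oxidises it. Urinary products of this pathway are a standard clinical marker of neuroblastoma.

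Levels are given as TPM, a transcript share scaled by transcript length, and so can be set side by side between genes of a library. TPM holds no read counts, so sequencing depth is unknown and no counting interval can be given. The listed names summed to between 929054 and 929189 TPM in NEN libraries and between 932109 and 933500 TPM in DMSO libraries. Between 17294 and 17820 genes lay above 0 in NEN libraries and between 17285 and 18041 in DMSO libraries. The mRNAs encoded by mitochondrial DNA took 7.49% to 8.56% of summed TPM in NEN libraries and 9.53% to 11.6% in DMSO libraries. That share moves every TPM value, and its part in the results was not tested. In bulk RNA, a lower level per cell and fewer cells that express a gene cannot be told apart.

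The line carried the markers of its labelled type. All 6 markers of noradrenergic neuroblastoma were above 1 TPM in every library and summed to between 1431 and 1528 TPM in NEN libraries and between 1134 and 1155 TPM in DMSO libraries. The part of that sum in the results was not tested. The 5 blood markers stayed under 1 TPM in every library, with CD3E and HBB at 0, and summed to at most 0.50 TPM in NEN and 0.35 TPM in DMSO libraries. Of the 4 adrenal cortex markers, NR5A1, CYP11B1 and CYP17A1 were listed at 0 throughout, and STAR had 1.099, 1.02 and 0.219 TPM in NEN replicates 1 to 3, against 0.283, 0.386 and 0.360 TPM in DMSO replicates 1 to 3.

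NEN-treated cells had more TH and DBH mRNA and less DDC, SLC18A1 and CYB561 mRNA than DMSO-treated cells. The mean of SLC6A2 in NEN cells was 1.00 times that in DMSO cells, with overlapping groups. SLC18A2 and MAOA stayed under 1 TPM in every library, and PNMT was at most 1.82 TPM. The mean level of TH in NEN cells was 1.87 times that in DMSO cells, that of DBH 1.33 times, that of DDC 0.732 times, that of SLC18A1 0.691 times and that of CYB561 0.345 times. Fold changes below are differences in mean log2(TPM + 1), NEN minus DMSO, and on that scale the change of low genes is understated. They carry the SE, the 95% interval and the Benjamini-Hochberg adjusted p from limma, fitted over all 12576 genes whose mean reached 1 TPM. Of the 9 genes, 6 reached that mean. Of these 6, 2 rose and 3 fell at an adjusted p under 0.05, where 13.5% of all tested genes rose, 16.5% fell and 30.0% passed in either direction. The median fold change was -0.22 over the 6 genes and -0.02 over all tested genes. The groups did not overlap for 5 of the 6 genes, as for 46.8% of all tested genes.

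**Figure D1:**
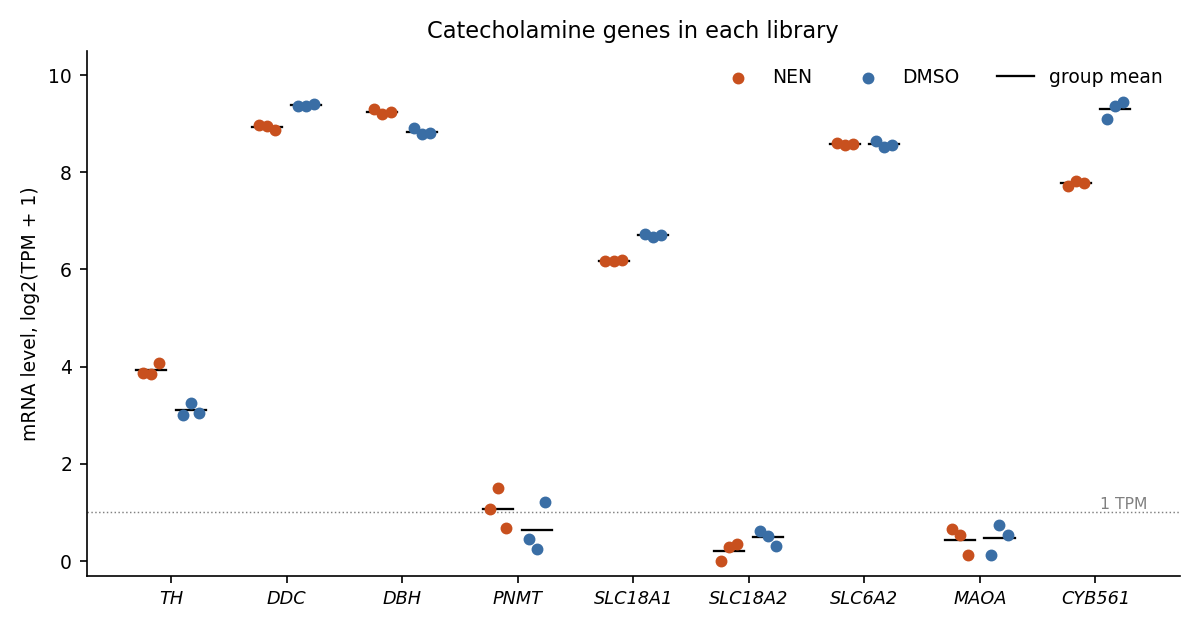
mRNA level of the 9 catecholamine genes in each of the 3 NEN and 3 DMSO libraries, as log2(TPM + 1), in pathway order with CYB561 last; points are libraries, bars are group means and the dotted line marks 1 TPM. TH and DBH lie higher in NEN libraries, DDC, SLC18A1 and CYB561 lie lower, and PNMT, SLC18A2 and MAOA lie near the floor in both groups.

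TH, which catalyses the rate-limiting step, had 13.6, 13.4 and 15.9 TPM in NEN replicates 1 to 3, against 7.04, 8.54 and 7.31 TPM in DMSO replicates 1 to 3. Every NEN library lay above every DMSO library. The fold change was 0.82 ± 0.12 (95% interval 0.54 to 1.11, adjusted p = 0.00324 in limma). This change was larger in size than that of 92.7% of tested genes. By level, TH stood far below DDC and DBH and above PNMT, at place 6891 of 35130 listed genes by its NEN mean and place 8786 by its DMSO mean.

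DDC, the aromatic amino acid decarboxylase, had 498, 492 and 468 TPM in NEN replicates 1 to 3, against 659, 655 and 679 TPM in DMSO replicates 1 to 3. All NEN libraries lay below all DMSO libraries. The fold change was -0.45 ± 0.05 (95% interval -0.56 to -0.34, adjusted p = 0.00107 in limma). In GENCODE release 29 the span of DDC overlaps that of FIGNL1, a gene on the same strand that encodes an ATPase of DNA repair. FIGNL1 had 8.24, 7.78 and 7.87 TPM in NEN replicates 1 to 3, against 19.5, 26.7 and 19.5 TPM in DMSO replicates 1 to 3, a fold change of -1.34 ± 0.14 (adjusted p = 0.000939 in limma). The group means of FIGNL1 differed by -13.9 TPM and those of DDC by -178 TPM, NEN minus DMSO. The part of shared reads in either value was not tested.

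DBH, the copper enzyme that makes noradrenaline, had 627, 585 and 605 TPM in NEN replicates 1 to 3, against 478, 438 and 447 TPM in DMSO replicates 1 to 3. The NEN libraries all lay above the DMSO libraries. The fold change was 0.41 ± 0.05 (95% interval 0.28 to 0.54, adjusted p = 0.00223 in limma). When library trends over transcript length and GC were removed, it was 0.27 with an adjusted p = 0.0164 in limma, and the adjusted p lay between 0.0016 and 0.0164 over the alternatives. DBH held place 193 of the listed genes by its NEN mean, against place 266 by its DMSO mean. In the annotation an antisense gene, DBH-AS1, overlaps DBH, and another, DDC-AS1, overlaps DDC, and neither is among the listed names. The labels do not say whether the libraries kept strand. Reads from any sequence that DBH or DDC shares with its antisense partner thus cannot be told apart. The overlaps are of gene spans, and whether exons overlap was not tested.

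The starts of DBH and DDC are shown because these neighbouring steps moved in opposite directions. Windows were taken from RefSeq (build GRCh38.p14), which differs from the hg19 build named for the files, and 5 of the 9 genes (DDC, DBH, SLC18A2, MAOA and CYB561) had at least 1 window. Each line gives the 250 bases before an annotated start, 5′ to 3′ on the gene's strand. Capitals mark matches on either strand to ATTA, the core letters that homeodomain proteins such as PHOX2A bind, or to TGACG, a half-site of the cyclic AMP response element. DDC has alternative first exons for neuronal and non-neuronal tissue, and these data do not tell which start was used.
DBH, chr9:133636113-133636362, plus strand: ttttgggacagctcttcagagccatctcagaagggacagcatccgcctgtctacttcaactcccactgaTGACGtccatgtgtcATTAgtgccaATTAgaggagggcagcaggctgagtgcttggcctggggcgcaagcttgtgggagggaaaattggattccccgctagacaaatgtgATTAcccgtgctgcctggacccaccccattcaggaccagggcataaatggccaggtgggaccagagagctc
DDC, downstream start, chr7:50561072-50561321, minus strand: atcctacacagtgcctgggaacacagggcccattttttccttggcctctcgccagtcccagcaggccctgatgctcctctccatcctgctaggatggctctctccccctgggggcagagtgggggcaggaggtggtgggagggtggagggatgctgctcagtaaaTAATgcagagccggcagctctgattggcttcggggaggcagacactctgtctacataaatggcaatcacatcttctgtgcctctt
DDC, upstream start, chr7:50565406-50565655, minus strand: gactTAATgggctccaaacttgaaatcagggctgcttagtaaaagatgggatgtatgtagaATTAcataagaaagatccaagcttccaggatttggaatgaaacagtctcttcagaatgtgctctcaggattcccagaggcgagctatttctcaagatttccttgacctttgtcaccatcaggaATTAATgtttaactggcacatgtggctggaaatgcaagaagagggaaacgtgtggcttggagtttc
The DBH window held 3 matches to ATTA, which begin at positions -166, -156 and -71 from the start, and 1 match to TGACG, which begins at position -181. The downstream DDC window held 1 match to ATTA and the upstream window 4, of which 2 overlap, and neither held TGACG. ATTA on either strand occurs in 47.4% of the 35116 windows of this length in the table and TGACG in 21.2%. Of the windows not shown, 1 of CYB561 held 3 matches to ATTA, that of MAOA held 1, and that of SLC18A2 held 2 to TGACG. A match describes the letters alone.

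PNMT, which makes adrenaline, had 1.11, 1.82 and 0.593 TPM in NEN replicates 1 to 3, against 0.375, 0.194 and 1.33 TPM in DMSO replicates 1 to 3. The groups overlapped, and the mean over all libraries, 0.903 TPM, was just under the minimum for testing. Fitted without that minimum, its fold change was 0.44 ± 0.33 (adjusted p = 0.503 in limma).

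SLC18A1, the vesicular transporter typical of endocrine chromaffin cells, had 71.3, 70.7 and 72.2 TPM in NEN replicates 1 to 3, against 105.7, 100.3 and 104.0 TPM in DMSO replicates 1 to 3. The groups stood well apart, with little spread in either. The fold change was -0.53 ± 0.05 (95% interval -0.65 to -0.40, adjusted p = 0.000883 in limma). SLC18A2, the vesicular transporter of monoamine neurons, was listed at 0 in NEN replicate 1 and had 0.222 and 0.279 TPM in NEN replicates 2 and 3, against 0.535, 0.438 and 0.249 TPM in DMSO replicates 1 to 3. It overlapped between groups and had a fold change of -0.27 ± 0.16 without the minimum (adjusted p = 0.343 in limma). Of the mRNA for these 2 vesicular monoamine transporters, nearly all was SLC18A1 in both groups. SLC18A1 was 319 and 259 times SLC18A2 in NEN replicates 2 and 3, and 198, 229 and 418 times in DMSO replicates 1 to 3. These ratios rest on SLC18A2 values under 1 TPM, and none was formed for NEN replicate 1.

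SLC6A2, the transporter through which neuroblastoma cells also take up the imaging agent MIBG, had 385, 379 and 384 TPM in NEN replicates 1 to 3, against 400, 367 and 379 TPM in DMSO replicates 1 to 3. The groups overlapped, with the NEN values inside the DMSO range. The fold change was 0.003 ± 0.05 (adjusted p = 0.974 in limma), and its 95% interval ran from -0.12 to 0.12. Only 0.668% of tested genes had a smaller fold change in size.

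MAOA, which oxidises noradrenaline at the mitochondrial outer membrane, had 0.584, 0.446 and 0.0869 TPM in NEN replicates 1 to 3, against 0.0969, 0.668 and 0.451 TPM in DMSO replicates 1 to 3. The groups overlapped throughout, and the fold change without the minimum was -0.03 ± 0.23 (adjusted p = 0.955 in limma). MAOB, its close relative, was also under 1 TPM in every library.

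CYB561 passes electrons across the membrane of catecholamine vesicles and so renews the ascorbate that DBH uses. It had 211, 226 and 218 TPM in NEN replicates 1 to 3, against 549, 660 and 691 TPM in DMSO replicates 1 to 3. The highest NEN library lay far below the lowest DMSO library. The fold change was -1.53 ± 0.09 (95% interval -1.73 to -1.32, adjusted p = 0.000219 in limma), larger in size than that of 99.3% of tested genes. Its place among the listed genes was 577 by the NEN mean, against 197 by the DMSO mean. RefSeq gives 4 starts for CYB561, and the window of 1 of them is shown because it holds CACGTG, the E-box letters that MYC family proteins bind, in capitals.
CYB561, chr17:63446307-63446556, minus strand: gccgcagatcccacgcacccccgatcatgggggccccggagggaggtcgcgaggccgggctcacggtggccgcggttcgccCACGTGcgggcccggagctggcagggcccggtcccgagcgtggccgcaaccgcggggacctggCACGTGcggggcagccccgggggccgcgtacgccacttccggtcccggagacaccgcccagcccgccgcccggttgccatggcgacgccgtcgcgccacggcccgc
The matches begin at positions -169 and -106 from that start. The other 3 CYB561 windows held no CACGTG, which occurs in 6.34% of all windows of this length. That share is per window and is not matched for GC content, which was 80% in the window shown. The motif was chosen after values were seen, and its matches describe the letters alone. These data do not tell which start was used.

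**Figure D2:**
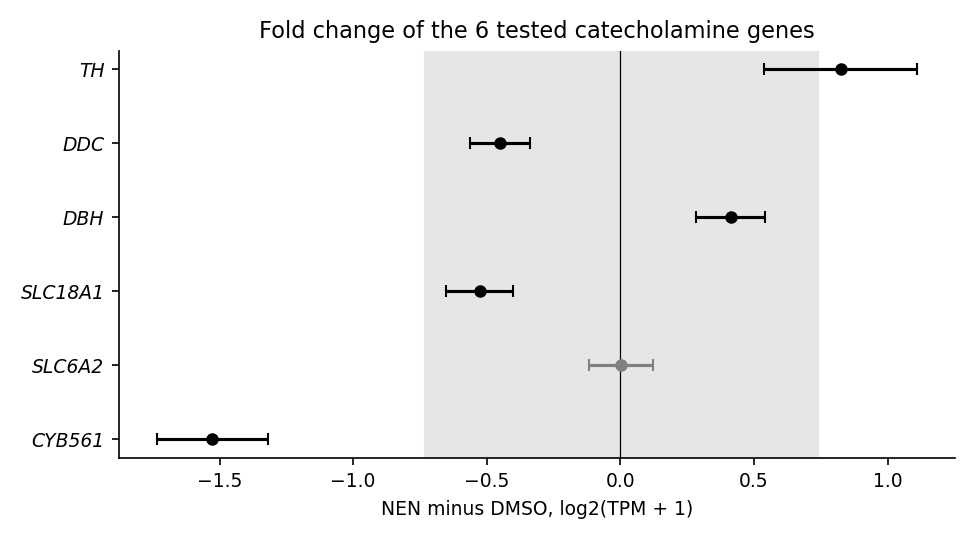
Fold change in log2(TPM + 1), NEN minus DMSO, of the 6 tested catecholamine genes, with 95% intervals from limma; black points passed an adjusted p of 0.05, the grey point did not, and the shaded band spans the 5th to the 95th percentile of all tested genes (-0.73 to 0.74). TH and CYB561 lie outside the band, and SLC6A2 lies at 0.

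The order of the genes by level differed between the groups. In NEN cells DBH was highest (606 ± 20.7 TPM, SD, n = 3), followed by DDC (486 ± 15.7), SLC6A2 (382 ± 3.4), CYB561 (218 ± 7.5), SLC18A1 (71.4 ± 0.77), TH (14.3 ± 1.4), PNMT (1.17 ± 0.62), MAOA (0.37 ± 0.26) and SLC18A2 (0.17 ± 0.15). Each neighbour in this order was apart from the next in every library except MAOA and SLC18A2, whose ranges overlapped. In DMSO cells DDC (665 ± 13.1 TPM, SD, n = 3) and CYB561 (633 ± 74.8) stood highest with overlapping ranges, followed by DBH (455 ± 21.0), SLC6A2 (382 ± 16.7), SLC18A1 (103 ± 2.8) and TH (7.63 ± 0.80). PNMT, SLC18A2 and MAOA came last in DMSO cells, at 0.63 ± 0.61, 0.41 ± 0.15 and 0.41 ± 0.29 TPM, with ranges that overlapped. Together the 9 genes summed to 1807, 1768 and 1765 TPM in NEN replicates 1 to 3, against 2200, 2230 and 2310 TPM in DMSO replicates 1 to 3. That was 0.190% to 0.194% of summed TPM in NEN libraries and 0.236% to 0.248% in DMSO libraries.

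Ratios between steps were taken inside each library, where the library total cancels. DBH over DDC was 1.26, 1.19 and 1.29 in NEN replicates 1 to 3, against 0.725, 0.669 and 0.658 in DMSO replicates 1 to 3. DBH thus exceeded DDC in 3 of 3 NEN libraries and in 0 of 3 DMSO libraries. DDC over TH was 36.7, 36.8 and 29.5 in NEN replicates 1 to 3, against 93.6, 76.7 and 92.9 in DMSO replicates 1 to 3. DBH over TH was 46.2, 43.7 and 38.1 in NEN replicates 1 to 3, against 67.9, 51.3 and 61.1 in DMSO replicates 1 to 3. The excess of both later enzymes over TH was smaller in every NEN library than in any DMSO library. CYB561 over DBH was 0.336, 0.386 and 0.360 in NEN replicates 1 to 3, against 1.148, 1.505 and 1.546 in DMSO replicates 1 to 3. The log2 differences, NEN minus DMSO, were 0.87 for DBH over DDC, -1.36 for DDC over TH, -0.49 for DBH over TH and -1.95 for CYB561 over DBH. Each of these 4 ratios had p = 0.1 in a two-sided exact permutation test, 0.1 after adjustment over the 4, which is the smallest p that 3 against 3 libraries allow, so none could pass 0.05.

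**Figure D3:**
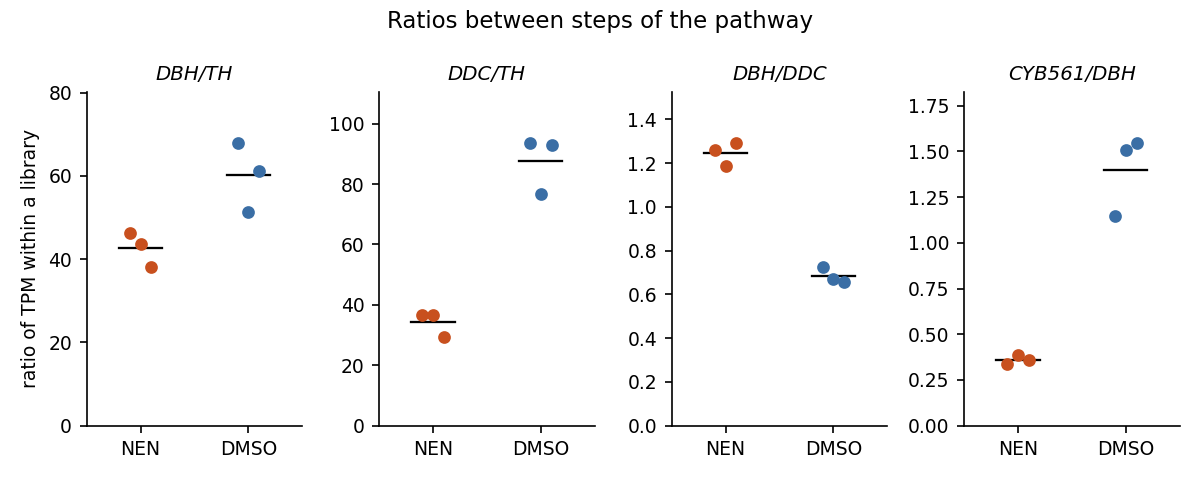
Ratio of TPM between catecholamine genes within each of the 3 NEN and 3 DMSO libraries, each panel on its own linear axis from 0; points are libraries and bars are group means. DBH over DDC is above 1 in all NEN libraries and below 1 in all DMSO libraries, and the other 3 ratios are lower in NEN libraries.

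Other genes of the pathway were read from 8 lists of 86 genes in all, of which 61 were tested. Of these 61, 13 rose and 14 fell, or 44.3% in either direction beside 30.0% of all tested genes, with a median fold change of 0.09 beside -0.02 over all tested genes. Some counts below are also given at an unadjusted p under 0.05. Of all 12576 tested genes, 5240 lay under that level in limma, in either direction. The cofactors of the synthetic enzymes come first. Of the 7 tested genes of tetrahydrobiopterin supply, the cofactor of TH, 0 rose and 3 fell in limma. That stands beside 13.5% that rose and 16.5% that fell over all tested genes. The list's counts were the same at an unadjusted p under 0.05. The median fold change of the 7 genes was 0.09, so the fall was not shared by the whole list. QDPR, which regenerates the used cofactor, averaged 76.2 ± 2.3 TPM in NEN and 98.5 ± 4.2 TPM in DMSO cells (-0.37 ± 0.06, adjusted p = 0.00466 in limma). PTS, the middle enzyme of cofactor synthesis, averaged 45.6 ± 4.0 TPM in NEN and 65.0 ± 5.1 TPM in DMSO cells (-0.50 ± 0.09, adjusted p = 0.0069). GCH1, the entry enzyme of cofactor synthesis, was picked out after its values were seen, with a fold change of 0.09 ± 0.09 (adjusted p = 0.453). Of the 9 tested genes that supply ascorbate, copper and pyridoxal phosphate, 0 passed the threshold in limma in either direction, while 1 was higher and 2 were lower at an unadjusted p under 0.05. At most 1 passed in each direction over the alternatives. The nearest to it were CYB561D2, a relative of CYB561 (-0.47 ± 0.15, adjusted p = 0.0554), and PDXK, which makes pyridoxal phosphate, the cofactor of DDC (0.27 ± 0.09, adjusted p = 0.0638). Of the 3 tested genes of precursor entry 0 passed in limma, against 2 at an unadjusted p under 0.05 and 2 that rose with quantile normalization, with SLC7A5, an amino acid transporter that carries tyrosine and L-DOPA, at 0.14 ± 0.05 (adjusted p = 0.0655).

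Among 9 tested enzymes that break down amines or their aldehydes, 1 rose and 0 fell in limma. That stands beside 13.5% that rose and 16.5% that fell over all tested genes. At an unadjusted p under 0.05, 2 were higher and 1 was lower. Of all 12576 tested genes, 5240 lay under that level in either direction. Over the alternatives 1 or 2 rose and 0 or 1 fell. ALDH2, the mitochondrial aldehyde dehydrogenase, averaged 67.2 ± 3.3 TPM in NEN and 53.4 ± 0.22 TPM in DMSO cells (0.32 ± 0.06, adjusted p = 0.00848 in limma).

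Of 8 transporters of monoamines or related vesicular cargo 3 were tested, and all 3 passed, beside 30.0% of all tested genes. Of these 3, 2 rose and 1 fell, and SLC29A4 alone is known as a monoamine transporter. SLC29A4, the plasma membrane monoamine transporter PMAT, had 24.1, 24.8 and 25.1 TPM in NEN replicates 1 to 3, against 10.1, 9.64 and 7.496 TPM in DMSO replicates 1 to 3. It rose by 1.35 ± 0.12 with groups far apart (adjusted p = 0.000625 in limma). SLC18A3, the vesicular acetylcholine transporter, averaged 32.3 ± 2.5 TPM in NEN and 54.2 ± 3.5 TPM in DMSO cells (-0.73 ± 0.09, adjusted p = 0.00146). SLC18B1, a vesicular polyamine transporter, rose by 0.41 ± 0.12 (adjusted p = 0.0428), but it was no longer called when any single library was dropped or when genes of all levels were tested. The adjusted p of SLC18B1 lay between 0.0198 and 0.124 over the alternatives. The dopamine and serotonin transporters SLC6A3 and SLC6A4 and the organic cation transporters SLC22A2 and SLC22A3 stayed under 1 TPM in every library.

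Of 14 adrenergic and dopamine receptors, 3 were tested and 3 passed, beside 30.0% of all tested genes. Of these 3, 1 rose and 2 fell, while over the alternatives 0 or 1 rose and 1 or 2 fell. DRD2, an inhibitory dopamine receptor, averaged 78.5 ± 1.4 TPM in NEN and 117 ± 16.5 TPM in DMSO cells (-0.56 ± 0.10, adjusted p = 0.0059 in limma). ADRA2A, an inhibitory adrenergic receptor, had 2.05, 1.97 and 2.02 TPM in NEN replicates 1 to 3, against 4.62, 5.00 and 5.10 TPM in DMSO replicates 1 to 3. It fell by 0.97 ± 0.14 (adjusted p = 0.00318), or by 0.50 with a pseudocount of 5 in place of 1. ADRA2C, of the same subfamily, averaged 54.3 ± 1.7 TPM in NEN and 39.9 ± 4.2 TPM in DMSO cells (0.44 ± 0.09, adjusted p = 0.0104). The call of ADRA2C was lost after length and GC correction, with 0.12 and an adjusted p = 0.252, and its adjusted p lay between 0.00687 and 0.252 over the alternatives.

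Of 14 tested transcription factors known to act on TH or DBH, 6 rose and 4 fell, beside 13.5% and 16.5% of all tested genes. Over the alternatives 4 to 7 rose and 3 to 5 fell, and 4 or 5 rose when 1 library was left out. PHOX2A, a homeodomain activator of DBH, averaged 749 ± 34.4 TPM in NEN and 428 ± 15.5 TPM in DMSO cells (0.80 ± 0.06, adjusted p = 0.000295 in limma). NR4A1, an orphan nuclear receptor, had 31.1, 27.2 and 27.9 TPM in NEN replicates 1 to 3, against 15.8, 15.6 and 12.5 TPM in DMSO replicates 1 to 3 (0.93 ± 0.11, adjusted p = 0.00166). In the other direction, EGR1, an immediate early factor, averaged 9.90 ± 0.11 TPM in NEN and 23.2 ± 0.50 TPM in DMSO cells (-1.15 ± 0.08, adjusted p = 0.000323).

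Of 13 tested genes for the kinases, the phosphatase and the YWHA scaffold proteins that act on TH protein, 3 rose and 4 fell. That stands beside 13.5% that rose and 16.5% that fell over all tested genes. The list's count that rose lay between 2 and 4 over the alternatives. CAMK2D, a calcium-dependent kinase, averaged 32.01 ± 0.96 TPM in NEN and 19.7 ± 0.74 TPM in DMSO cells (0.68 ± 0.08, adjusted p = 0.00124 in limma). MAPKAPK2, a stress kinase, averaged 27.9 ± 0.66 TPM in NEN and 18.9 ± 0.96 TPM in DMSO cells (0.54 ± 0.08, adjusted p = 0.00316). MAPK3, which encodes ERK1, rose by 0.43 ± 0.11 (adjusted p = 0.024), a call lost without NEN replicate 1, 2 or 3, without DMSO replicate 3, without the minimum level and after length and GC correction. Its adjusted p lay between 0.0143 and 0.0795 over the alternatives. YWHAG, a scaffold protein that binds phosphorylated partners, averaged 214 ± 6.7 TPM in NEN and 267 ± 8.2 TPM in DMSO cells (-0.32 ± 0.05, adjusted p = 0.00436). The other 3 calls that fell were YWHAH, YWHAZ and PPP2CA. The list's count that fell lay between 1 and 4 over the alternatives. Among these it was 1 with the replicate block and without NEN replicate 1, 2 or 3 or DMSO replicate 2. It was 2 in others, such as without DMSO replicate 3, without the minimum level and with median-ratio scaling.

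**Figure D4:**
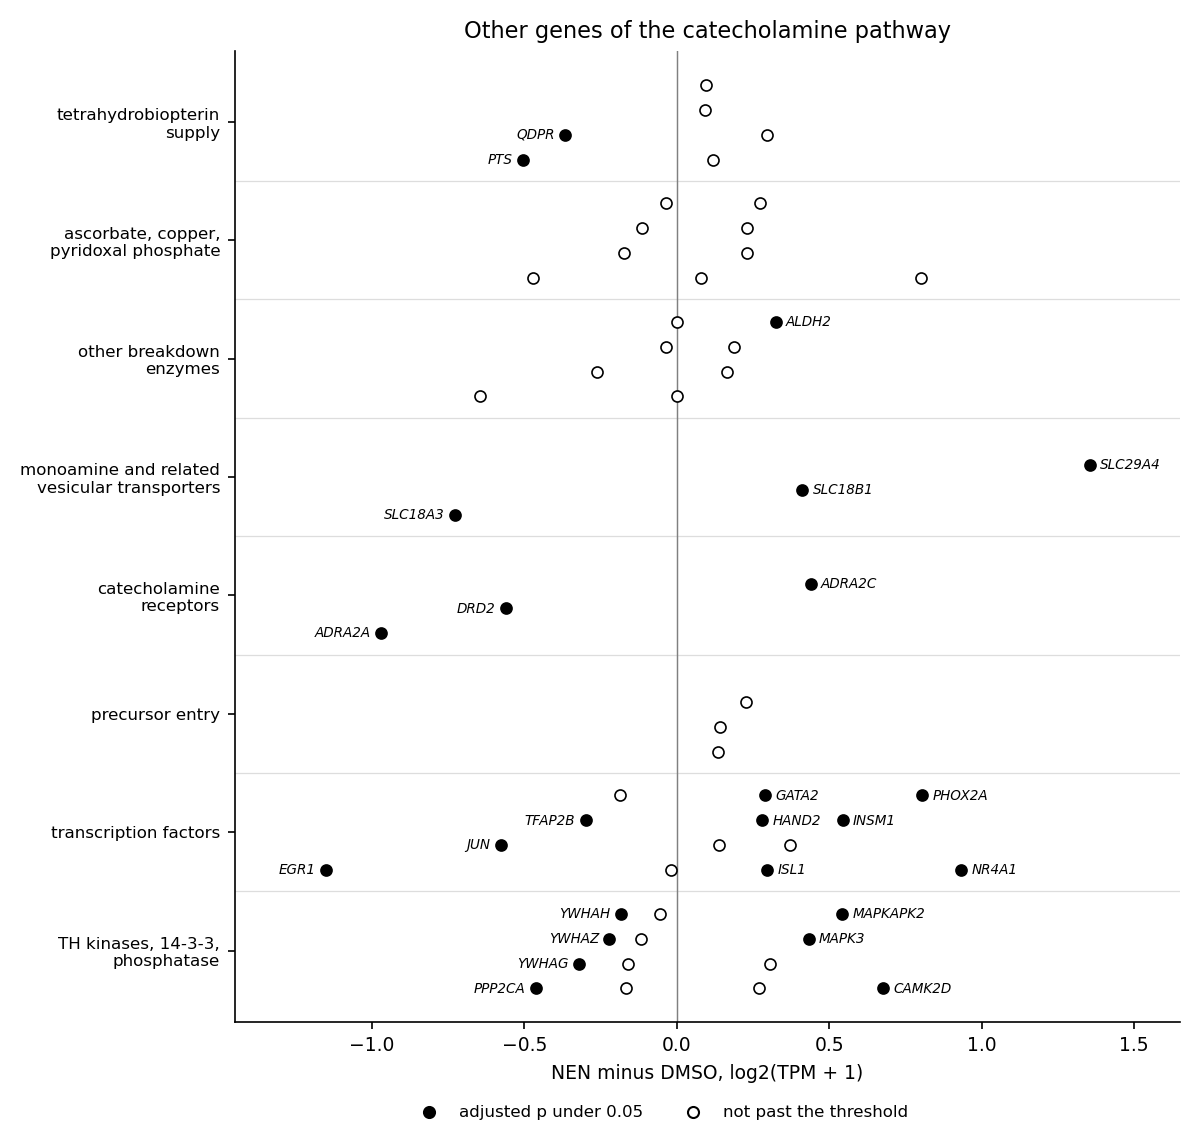
Fold change in log2(TPM + 1), NEN minus DMSO, of tested genes of the 8 pathway lists; filled points with names passed an adjusted p of 0.05 in limma and open points did not. Called genes lie on both sides of 0 among transporters, receptors, transcription factors and the kinase list, while the called genes of tetrahydrobiopterin supply that are shown, PTS and QDPR, lie below 0.

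For each called catecholamine gene, the protein-coding genes of at least 10 TPM with the likest profile over the 6 libraries were found by the root-mean-square difference on the log2 scale, taken from the DMSO mean, among 7449 genes. DBH lay closest to TKT, a pentose phosphate enzyme, at 0.02, and TKT averaged 431 ± 18.0 TPM in NEN and 323 ± 15.9 TPM in DMSO cells. DDC lay closest to FAM168B (0.021) and SLC18A1 to ABCF2 (0.021). For TH the closest were FAM72D (0.057), which has near-identical copies so that its own level is uncertain, and SYT14, a synaptotagmin (0.067). CYB561 lay closest to FEN1, a replication nuclease, at 0.12, and to DGCR8, a subunit of the microRNA processor, at 0.15. FEN1 averaged 21.7 ± 2.2 TPM in NEN and 67.7 ± 3.4 TPM in DMSO cells. With a pair of groups that differ in many genes, such likeness is a description and carries no test.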

How the data were processed

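The deposited values are TPM, 1 file per library with the same 35130 names. Per the submitters' processing notes the tool was kallisto and the build hg19. The sources used here give no versions, no strandedness and no way of summing transcripts to genes. Per the labels' protocols RNA came from a Trizol extraction, and both polyA capture and rRNA removal are mentioned without saying which was used. Groups came from the labels (3 NEN, 3 DMSO).

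Values were taken as log2(TPM + 1). Genes whose mean over all 6 libraries reached 1 TPM were tested with limma 3.58.1 in R 4.3.3 (group alone, trend and robust settings, two-sided), with Benjamini-Hochberg adjustment over 12576 genes and a threshold of 0.05. Ratios were tested with exact permutation (scipy 1.17.1). Members, lists and tests were chosen with earlier results of these data known. The naming rule took all 9 genes, up to 4 tested genes per list with the smallest adjusted p, and the 2 likest genes of each called gene; not all are printed. GCH1, MAOB, FIGNL1, FEV, PDGFRB and the genes listed near 0, and the motifs, were chosen after values were seen. All 86 list symbols were found and are counted, but a few genes are not reported here by name or plotted. Promoter windows came from RefSeq and gene overlaps from GENCODE release 29 (GRCh38).

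The fit was repeated with a replicate block, without each library in turn, with no minimum or one of 5 TPM, and with median-ratio scaling, quantile normalization, limma without trend and robust settings, and pseudocounts of 0.1 and 5. Added after the data were seen was a loess correction (span 0.3) for transcript length and GC content on 11684 genes.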

Additional observations from a re-analysis of the deposited data

How the results depend on the processing

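The 5 called catecholamine genes kept their direction and stayed past the threshold in all 75 refits (5 genes under 15 alternatives). TH lay between 0.60 and 0.90, DDC between -0.47 and -0.39, DBH between 0.27 and 0.49, SLC18A1 between -0.55 and -0.46 and CYB561 between -1.68 and -1.46. SLC6A2, never past the threshold, lay between -0.0253 and 0.0365 when 1 library was left out and changed sign in 3 of those 6 fits. Over all genes, the count that rose was 1699, and lay between 1061 (without NEN replicate 1) and 1544 when 1 library was left out. Median-ratio scaling and quantile normalization gave 1865 and 1866 genes that rose, and 1934 and 1856 that fell. The replicate numbers were not taken as pairs, because the labels do not say that they mark a shared batch. Same-numbered libraries did not deviate together (r of 0.0117, -0.00755 and -0.0278 for numbers 1 to 3). With the replicate block, 1328 genes rose and 1649 fell, and the calls of SLC18B1 (adjusted p = 0.063) and MAPK3 (0.057) were lost. Depth is unknown, so the values of SLC18A2 and MAOA, all under 1 TPM, say only that the mRNA was near the floor. The same holds for PNMT, whose values were at most 1.82 TPM.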

Other observations

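Genes of other transmitter types were uneven in this line. FEV, a transcription factor known from serotonin neurons, had 526, 508 and 504 TPM in NEN replicates 1 to 3, against 574, 515 and 515 TPM in DMSO replicates 1 to 3, with overlapping groups (-0.06 ± 0.06, adjusted p = 0.487 in limma). The serotonin synthesis enzymes TPH1 and TPH2 were at most 0.72 TPM in NEN libraries and at most 1.00 TPM in DMSO libraries. Of the cholinergic genes, CHAT, the acetylcholine synthesis enzyme, had 3.63, 0.837 and 0.784 TPM in NEN replicates 1 to 3, against 1.87, 1.81 and 1.89 TPM in DMSO replicates 1 to 3, and the choline transporter SLC5A7 was listed at 0 in every library.

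Among markers of fibroblasts and stroma, COL1A1, COL1A2 and LUM did not pass or were not tested, while PDGFRB, a growth factor receptor, had 24.3, 22.5 and 19.3 TPM in NEN replicates 1 to 3, against 9.27, 8.59 and 12.6 TPM in DMSO replicates 1 to 3 (1.06 ± 0.16, adjusted p = 0.00326 in limma). The 4 markers summed to between 24.2 and 28.1 TPM in NEN libraries and between 12.2 and 17.8 TPM in DMSO libraries. The part of these genes in the catecholamine results was not tested.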
